A study of Mus musculus with 6 samples.

Results

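Apolipoproteins are the protein coats of the particles that carry fat and cholesterol through blood, and the liver makes most of them. Described here are 10 of their genes in mouse liver, Apoa1, Apoa2, Apoa4, Apoa5, Apob, Apoc2, Apoc3, Apoc4, Apoh and Apom, taken by name from 48075 gene names in the data. Apoc1 was not among them. All 10 passed the filter on low values that left 10685 genes for testing. RNA-Seq was run once on the liver of each of 6 house mice. Of these, 3 were inbred C57BL/6 laboratory mice, all male, young adults from a breeding facility that were sacrificed on arrival. The other 3 were outbred adults trapped alive in New South Wales, wild mice 1 and 2 at Murrumbateman and wild mouse 3 at Yass. They were kept for months at ambient conditions, and wild mouse 1 was male and wild mice 2 and 3 were female. The sources used here name no drug and no engineered allele for these mice, and all livers were frozen without fixation after cervical dislocation. By the paper, the laboratory mice had been archived for longer than the wild mice when their carcasses were sampled. How long the livers were frozen before RNA was extracted is not given. Sex, time in captivity, age, time since preparation and origin therefore differed partly or wholly along the same split. Their parts in a difference cannot be told apart.

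In the particles, Apob is the large structural protein on which triglyceride-rich very low density lipoprotein is built, while Apoa1 and Apoa2 are the main proteins of high density lipoprotein. Apoc2 activates lipoprotein lipase, the enzyme that releases fatty acids from these particles in capillaries, Apoc3 inhibits their clearance, and Apoa5 promotes it. Apoa4 is best known from the intestine, where it accompanies chylomicrons, and is also made in liver. Apom carries the signalling lipid sphingosine 1-phosphate on high density lipoprotein, and Apoh, also called beta-2 glycoprotein I, binds acidic phospholipids.

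The unit of the data is FPKM, which divides the fragments of a gene by the length of its transcript and by the size of the library, so levels of different genes can be set side by side. For tests, log2(FPKM + 1) was shifted in each mouse to a common median over the tested genes, and a difference is the laboratory mean less the wild mean on that scale, tested with limma over all tested genes. A gene was called at a Benjamini-Hochberg adjusted p under 0.05. The shift matters: before it, the median of log2(FPKM + 1) over the tested genes was 2.09 to 2.42 in the laboratory mice and 2.98 to 3.09 in the wild mice, and the median gene differed by -0.70. The depth of the libraries is unknown, because the files hold no counts. Of 10 hepatocyte markers, 9 had values and 8 were tested, and the summed FPKM of those 8 was 11847 to 17957 in laboratory and 12662 to 14455 in wild mice, with 1 called higher and 4 lower in laboratory mice. Most of each sum was Ttr, the marker called higher, at 10763 to 16515 in laboratory and 7137 to 8476 in wild mice. The sums therefore say little of the other markers. Alb, which encodes albumin, had an estimate in laboratory mouse 3 alone, at an FPKM of 21230.4. Other cells were also represented: the 5 erythrocyte markers summed to 1340 to 5134.5 in laboratory and 724 to 1581 in wild mice with 3 called higher in laboratory mice, the 5 Kupffer cell markers to 26.8 to 34.4 and 11.1 to 106, the 4 markers of sinusoidal endothelium to 16.0 to 25.7 and 13.7 to 46.5, the 4 of stellate cells to 25.2 to 37.2 and 70.9 to 127, and the 4 of biliary epithelium to 3.81 to 9.56 and 1.65 to 4.59. Their part in the results below was not tested, and in whole liver fewer cells of a type and less RNA per cell cannot be told apart.

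The 10 genes ran in the same order of mean FPKM in both groups: Apoa2, Apoa1, Apoc3, Apoh, Apoc2, Apoa5, Apob, Apoa4, Apom and Apoc4. They spanned almost 4 orders of magnitude, from a mean of 30592 ± 3639 (SD, n = 3) for Apoa2 to 3.49 ± 0.451 (SD, n = 3) for Apoc4 in laboratory mice. Among the gene names with an estimate in a mouse, Apoa2 ranked 3 to 9, Apoa1 8 to 11 and Apoc3 10 to 17. Genes without an estimate, such as Alb in all mice but laboratory mouse 3, were left out and could stand above them. In the laboratory mice no pair of neighbours in this order overlapped. In the wild mice Apoc2 overlapped Apoa5, Apoa5 overlapped Apob and Apob overlapped Apoa4.

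**Figure D1:**
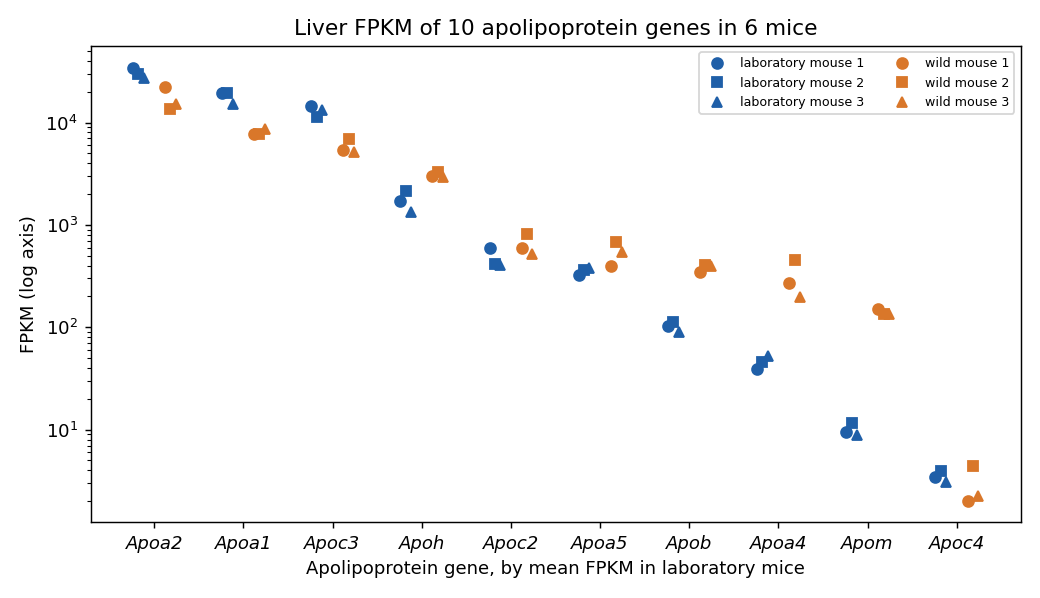
FPKM of the 10 apolipoprotein genes (log axis) in each of the 3 laboratory and 3 wild mice, with genes ordered by their mean in laboratory mice. Apoa2, Apoa1 and Apoc3 sit at or above 5199 in every mouse, with the laboratory mice higher, while Apob, Apoa4 and Apom are higher in every wild mouse.

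Of the 10 genes, 7 were called, where 52.9% of the 10685 tested genes were called as well. Apoa1, Apoa2, Apoc3 and Apoc4 were called higher in laboratory mice (28.7% of all tested genes were), and Apoa4, Apob and Apom lower (24.2% were), although quantile normalization turned Apoa1, Apoa2 and Apoc3 to lower in laboratory mice. Apoa5, Apoc2 and Apoh were not called. The median difference of the 10 genes was 0.26 and their median absolute difference 1.40, beside 0.06 and 0.57 over all tested genes. The 10 genes were not matched in level to the tested genes, and adding 1 to FPKM narrows the differences of genes with low values. On the deposited FPKM the groups did not overlap for 8 of the 10, 3 of them higher and 5 lower in laboratory mice, where 70.9% of all tested genes did not overlap. Wherever FPKM did not overlap, the exact permutation test (two-sided) gave p = 0.1, which is as low as a comparison of 3 with 3 mice can go. On the shifted scale 7 of the 10 did not overlap, where 62.9% of all tested genes did not.

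**Figure D2:**
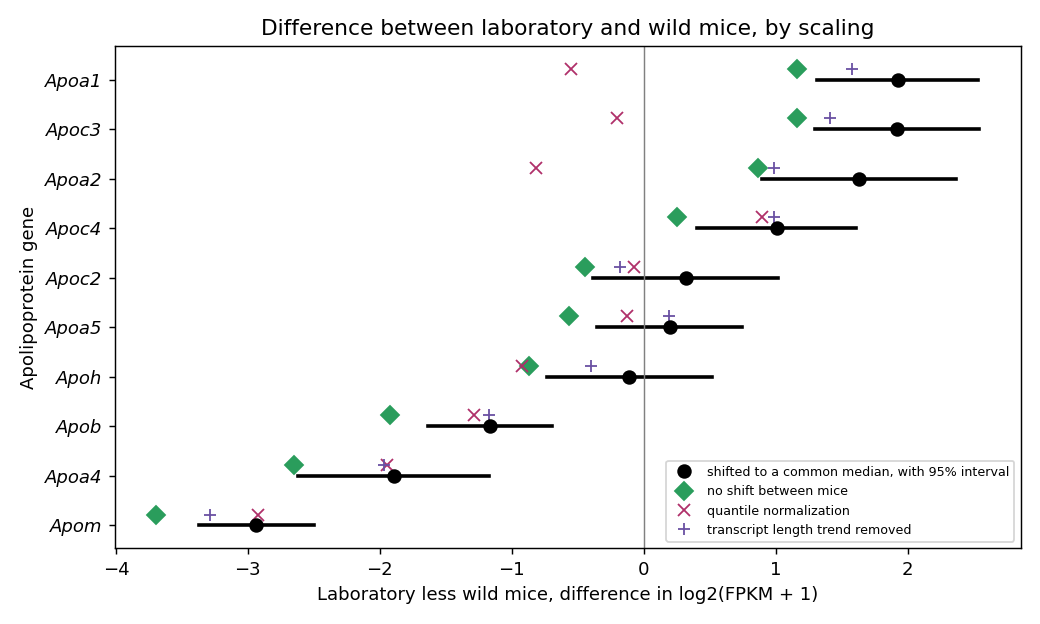
Difference between laboratory and wild mice in log2(FPKM + 1) for each gene. Black points with bars are the values after the shift to a common median with their 95% intervals, and the other symbols are the same differences with no shift, with quantile normalization and with the transcript length trend removed. Apom, Apoa4 and Apob lie below 0 under all 4 scalings, whereas Apoa1, Apoa2 and Apoc3 lie above 0 under 3 and below 0 with quantile normalization.

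Apoa1, the main protein of high density lipoprotein and the activator of the cholesterol-esterifying enzyme LCAT, stood at an FPKM of 19565, 19451 and 15319.7 in laboratory mice 1 to 3 and at 7721, 7803 and 8583 in wild mice 1 to 3. Every laboratory mouse lay above every wild mouse, and the wild mice were close to each other. The laboratory mean of 18112 ± 2419 (SD, n = 3) was 2.25 times the wild mean of 8036 ± 476 (SD, n = 3). After the shift the difference was 1.92 (SE 0.265, adjusted p = 0.000846), or 3.79-fold. Quantile normalization over the tested genes reversed it to -0.55 (adjusted p = 0.0145). The gene lies at chr9:46228630-46230469 of GRCm38.

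Apoa2, the other main protein of high density lipoprotein (chr1:171221564-171226379), had the highest FPKM of the 10 in every mouse, at 34445, 30115 and 27214 in laboratory and 22362, 13702 and 15099 in wild mice. The groups did not overlap, and the wild male, mouse 1, lay nearest to the laboratory males. The difference was 1.63 (SE 0.317, adjusted p = 0.00389), and quantile normalization reversed it to -0.82 (adjusted p = 0.00388). With sex as a covariate, which sets the wild male against the laboratory males, it was 1.17 and was no longer called (adjusted p = 0.0684). Tomm40l, an entry that shares 951 bases of the Apoa2 span, had an FPKM of 10.7 to 28.0 beside levels of at least 13702.

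Apoc3, the inhibitor of lipoprotein clearance (chr9:46233050-46235636), had an FPKM of 14411, 11364 and 13185 in laboratory and 5392, 6873 and 5199 in wild mice. Again no wild mouse reached a laboratory mouse. The difference of 1.92 (SE 0.269, adjusted p = 0.000909), 3.79-fold, was nearly that of Apoa1, and quantile normalization turned it to -0.20 (adjusted p = 0.419).

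Apom (chr17:35128997-35131801), the sphingosine 1-phosphate carrier, showed the widest gap of the 10. Its FPKM was 9.51, 11.5 and 8.86 in laboratory and 151, 136 and 134 in wild mice. All 3 wild mice stood together, far above all 3 laboratory mice, with the wild male slightly above the wild females. The wild mean of 140 ± 9.71 (SD, n = 3) was 14.1 times the laboratory mean of 9.96 ± 1.38 (SD, n = 3). After the shift the difference was -2.94 (SE 0.188, adjusted p = 6.4e-05), 7.65-fold, and it kept its call in all 16 alternatives, with an adjusted p of at most 0.00108. With the transcript length trend removed the difference was -3.29, with no shift it was -3.69, and with quantile normalization it was -2.92.

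Apom lies in the major histocompatibility region, which the assembly holds in several versions, and the gene is listed at 4 places with the same FPKM in each of the 5 mice that list them all. Laboratory mouse 1 lists the chromosome 17 place alone. At these 4 places 143 gene names are listed, of which 9 were tested, Apom included. The other 8 had differences from -0.57 to 1.65 with a median of 0.58, and 4 of the 9 were called higher and 2 lower in laboratory mice. Csnk2b, the near neighbour of Apom with the next highest level, had an FPKM of 21.5, 22.9 and 21.9 in laboratory and 23.5, 19.5 and 21.3 in wild mice. Its FPKM overlapped between the groups. After the shift Csnk2b was called higher in laboratory mice, by 0.81 (adjusted p = 0.00455), a difference that comes mostly from the shift itself. Csnk2b was chosen for its position after the values had been seen. How the authors' counting divided reads among near-identical copies is not given in the sources used here, so the absolute level of Apom is uncertain. Whether that division was alike in laboratory and wild mice was not tested. The sequence around the Apom start, from 250 bases before to 50 after it, is shown because Apom carried the widest gap, and was read from RefSeq on GRCm38.p6.
Apom, chr17:35131752-35132051, minus strand: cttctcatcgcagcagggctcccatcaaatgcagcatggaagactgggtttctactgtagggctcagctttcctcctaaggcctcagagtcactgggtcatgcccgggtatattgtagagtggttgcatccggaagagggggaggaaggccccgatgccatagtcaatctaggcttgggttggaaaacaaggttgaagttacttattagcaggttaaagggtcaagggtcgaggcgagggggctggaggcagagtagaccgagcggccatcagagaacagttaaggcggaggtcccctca

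Of the tested genes, those whose pattern over the 6 mice was most like that of Apom by Pearson's correlation were Psmd13, Gfm1, Dld, Gm10639 and Gsta1 (r from 0.9993 to 0.9994), given as a description. The mice fall into separate groups, and 282 of 10671 genes had r above 0.99. Psmd13, a subunit of the proteasome lid, had an FPKM of 2.18, 2.74 and 2.15 in laboratory and 53.9, 44.3 and 46.8 in wild mice. Dld, the dihydrolipoamide dehydrogenase shared by mitochondrial enzyme complexes, had 10.5, 12.9 and 11.8 against 79.5, 73.9 and 72.4. Both were low in all laboratory and high in all wild mice.

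Apoa4 (chr9:46240844-46243458) had an FPKM of 39.1, 46.2 and 52.2 in laboratory and of 272, 459 and 198 in wild mice. The lowest wild mouse exceeded the highest laboratory mouse, and the wild mice were widely spread. The wild mean of 309.8 ± 134 (SD, n = 3) was 6.76 times the laboratory mean of 45.9 ± 6.56 (SD, n = 3). The difference was -1.89 (SE 0.313, adjusted p = 0.00188), 3.71-fold, and kept its call in all 16 alternatives. Since Apoa4 is also an intestinal gene, markers of enterocytes were read beside it. Of 6 such markers, Sis and Alpi were listed at 0 in every mouse, Vil1 was at most 0.127, and Fabp2, which was not called, made up nearly all of their summed FPKM of 28.8 to 40.5 in laboratory and 24.2 to 43.4 in wild mice. Whether intestinal cells had a part in the levels of Apoa4 was not tested.

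Apob (chr12:7977629-8016839), the core protein of very low density lipoprotein, had an FPKM of 103, 112 and 89.5 in laboratory and 351, 410 and 400.2 in wild mice. The groups were far apart and tight, with a wild mean of 387 ± 31.7 (SD, n = 3) that was 3.82 times the laboratory mean of 101 ± 11.2 (SD, n = 3). The difference was -1.17 (SE 0.203, adjusted p = 0.00236), 2.25-fold, and this gene too kept its call in all 16 alternatives. In the expression classes that the study drew from zFPKM, its score of expression within a mouse, Apob and Apoa4 passed the bound of 2 for high expression in 3 of 3 wild and 0 of 3 laboratory mice. Apom and Apoc4 did so in no mouse, and the remaining 6 genes in all.

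Apoa5, Apoc2 and Apoh were the genes without a call. Apoa5 (chr9:46268608-46271921), which promotes triglyceride clearance at very low plasma levels, had an FPKM of 328, 362 and 380 in laboratory and 395, 684 and 538 in wild mice. The groups did not overlap on the deposited FPKM, by a narrow margin, and after the shift they overlapped. The difference was 0.20 (95% interval -0.35 to 0.74, adjusted p = 0.507). With no shift it was -0.56, just past the threshold (adjusted p = 0.0494), and without wild mouse 1 it was -0.02.

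Apoc2 (chr7:19671579-19677941), the activator of lipoprotein lipase, had an FPKM of 596, 419 and 406 in laboratory and 601, 820 and 516 in wild mice, and laboratory mouse 1 lay within the wild range. The difference was 0.32 (95% interval -0.38 to 1.02, adjusted p = 0.403). Apoh (chr11:108395297-108414396) had 1696.5, 2149 and 1326 in laboratory and 3016.5, 3297 and 2950.3 in wild mice. All wild mice were higher in FPKM, by 1.79 times in the mean, and the groups overlapped after the shift, at a difference of -0.11 (95% interval -0.74 to 0.52, adjusted p = 0.758). Apoh was called lower in laboratory mice with no shift (-0.87, adjusted p = 0.00798) and with quantile normalization (-0.92, adjusted p = 0.00281), so its call rests on how mice are scaled.

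Apoc4 (chr7:19678084-19681460), a minor component of triglyceride-rich particles, was the lowest of the 10, with an FPKM of 3.44, 3.97 and 3.07 in laboratory and 2.03, 4.43 and 2.26 in wild mice. Wild mouse 2 was the highest of the 6, so the FPKM overlapped (exact permutation test, two-sided, p = 0.5). After the shift they did not, and the difference was 1.01 (SE 0.260, adjusted p = 0.0132). The call was lost with no shift (0.25, adjusted p = 0.39) and on zFPKM (adjusted p = 0.308).

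Apoc4 and Apoc2 stand next to each other on chromosome 7, in the cluster that also holds Apoc1 and Apoe. An entry named Gm44805, at chr7:19671579-19681460, spans both of them from end to end. It had an FPKM of 93.6, 106 and 82.2 in laboratory and 126, 228 and 107 in wild mice, far above Apoc4 itself in every mouse. Its difference was 0.13 (SE 0.321, adjusted p = 0.755). Reads of shared exons could have been given to either entry, so the level of Apoc4, and to a lesser degree that of Apoc2, is uncertain. With the FPKM of Gm44805 added to that of Apoc4, a sum formed after the data had been seen, the difference was 0.15 and the groups overlapped. The same sum for Apoc2 gave 0.29, also with overlap.

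On chromosome 9, Apoa1, Apoc3, Apoa4 and Apoa5 lie side by side between 46228630 and 46271921, and within this cluster the groups differed in opposite ways. A ratio of genes within a mouse does not change when all values of that mouse are multiplied by a factor, and the neighbours were set against Apoa1. Quantile normalization is not such a factor, and under it Apoa1 differed by -0.55, Apoc3 by -0.20, Apoa4 by -1.94 and Apoa5 by -0.13. Apoc3 relative to Apoa1 was 0.737, 0.584 and 0.861 in laboratory and 0.698, 0.881 and 0.606 in wild mice, and these ranges overlapped nearly in full. The means of their log2 ratio differed by 0.003, with an SD of 0.281 in laboratory and 0.273 in wild mice (exact permutation test, two-sided, p = 1).

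The ratio of Apoa1 to its neighbour Apoa4 was 500, 421 and 293 in laboratory and 28.4, 17.0 and 43.3 in wild mice. No wild mouse came near the laboratory range, and the groups differed by 3.84 in log2, or 14.4-fold (exact permutation test, two-sided, p = 0.1). Relative to Apoa5, Apoa1 was at 59.7, 53.8 and 40.3 in laboratory and 19.5, 11.4 and 16.0 in wild mice, a shift of 1.73 or 3.31-fold without overlap.

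**Figure D3:**
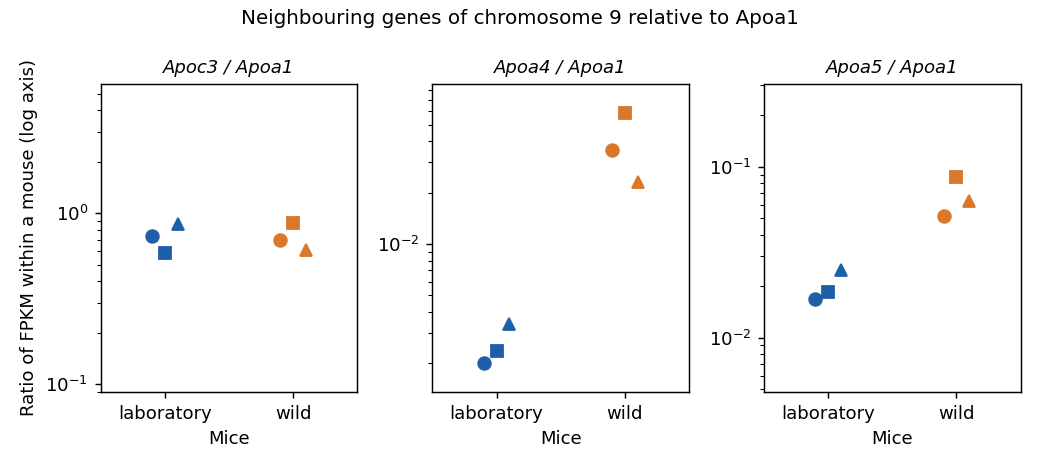
Ratio of the FPKM of Apoc3, Apoa4 and Apoa5 to that of Apoa1 within each mouse (log axes that span the same number of decades), by group, with the symbols of the levels plot for the single mice. The Apoc3 ratio overlaps between the groups, from 0.584 to 0.881, whereas the Apoa4 and Apoa5 ratios are higher in every wild mouse.

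The promoters of Apoa1, Apoa4 and Apoa5 are shown because the genes of this cluster stood apart in direction. Apoc3 had no entry. Each runs from 250 bases before to 50 after the RefSeq start on GRCm38.p6, 5′ to 3′ on the strand of the gene. For Apoa5, which RefSeq gives with more than a single start, the start that the files use was taken. Capitals mark a match of the TATA box as TATAAA, of the CCAAT box by its own letters, of CAAAGTCCA as known from HNF4A sites, or of AGGTCA as the core of nuclear receptor sites, searched on both strands.
Apoa1, chr9:46228380-46228679, plus strand: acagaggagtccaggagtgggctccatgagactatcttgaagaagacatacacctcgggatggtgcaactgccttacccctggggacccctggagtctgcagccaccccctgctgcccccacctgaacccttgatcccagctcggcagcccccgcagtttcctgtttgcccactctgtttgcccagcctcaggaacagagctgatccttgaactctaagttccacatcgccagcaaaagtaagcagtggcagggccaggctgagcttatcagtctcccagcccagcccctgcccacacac
Apoa4, chr9:46240594-46240893, plus strand: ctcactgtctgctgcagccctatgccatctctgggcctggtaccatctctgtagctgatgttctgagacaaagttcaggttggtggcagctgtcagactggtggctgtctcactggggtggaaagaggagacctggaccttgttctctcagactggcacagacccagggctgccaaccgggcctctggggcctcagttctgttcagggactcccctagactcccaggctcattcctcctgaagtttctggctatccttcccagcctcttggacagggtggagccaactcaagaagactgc
Apoa5, chr9:46268358-46268657, plus strand: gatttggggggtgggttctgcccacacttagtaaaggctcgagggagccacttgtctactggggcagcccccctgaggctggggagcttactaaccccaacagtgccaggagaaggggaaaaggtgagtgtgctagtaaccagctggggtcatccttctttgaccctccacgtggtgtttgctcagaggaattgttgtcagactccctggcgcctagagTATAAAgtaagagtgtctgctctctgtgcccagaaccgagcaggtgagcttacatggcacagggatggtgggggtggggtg

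A TATAAA stood at position -31 from the Apoa5 start, and none of the 4 motifs matched in the Apoa1, Apoa4 or Apom sequence. Of the other promoters, that of Apob held TATAAA at -60, that of Apoh AGGTCA at -215, that of Apoc2 AGGTCA at -115 and at 43, and that of Apoc4 CCAAT at -246 and AGGTCA at -25. The Apob position is from the start of its promoter entry, chr12:7977427-7977726, which is not the gene start given above. Apoa2 was searched at both of its RefSeq starts, with CCAAT at -128 and AGGTCA at -238 from the upstream start and CCAAT at -164 and TATAAA at -212 from the downstream start. Over 32851 RefSeq promoters of the same length, 13.6% held TATAAA, 37.4% CCAAT, 0.475% CAAAGTCCA and 16.3% AGGTCA. No match overlapped another in the promoters of the 10 genes, 9 of which had an entry.

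Over all 45 pairs of the 10 genes, the ratio within a mouse did not overlap between the groups for 37 (82.2%), beside 62.5% of all pairs of tested genes. The pairs share genes and are not independent. The widest were Apoa1 to Apom at 31.7-fold and Apoc3 to Apom at 31.7-fold. Apoa1 stood 2058, 1690 and 1728 times above Apom in laboratory and 50.97, 57.4 and 64.2 times in wild mice. Apoa1 relative to Apob, which sets a protein of high density lipoprotein beside that of very low density lipoprotein, was 191, 174 and 171 in laboratory and 22.0, 19.0 and 21.4 in wild mice, 8.58-fold apart with little spread in either group. The 8 pairs with overlap were those among Apoa1, Apoa2 and Apoc3, those among Apoa5, Apoc2 and Apoh, Apoa2 with Apoc4, and Apoa4 with Apob. Relative to Apoa1, Apoa2 was not apart, since wild mouse 1 had 2.90 times as much Apoa2 as Apoa1 and the other 5 mice 1.55 to 1.78 times.

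Transcript length moved with the differences. Over the 96.0% of tested genes with a length, Spearman's rho between length and difference was -0.16. This relation is across genes, and genes do not stand in for replicates. The median difference was 0.75 for transcripts up to 600 bases and -0.05 for those over 8000 bases. Apoa2, Apoc3 and Apoa1, with transcripts of 518, 709 and 1035 bases, were higher in laboratory mice except under quantile normalization, and Apob, with 13934 bases, was lower. Apom, with 1013 bases, was lower as well. With each mouse's length trend removed, an alternative chosen after seeing the data, Apoa1 kept a difference of 1.58, Apoc3 of 1.42, Apoa2 of 0.99 and Apob of -1.17, and each was still called. The part of transcript length in the difference of any of these genes was not tested.

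**Figure D4:**
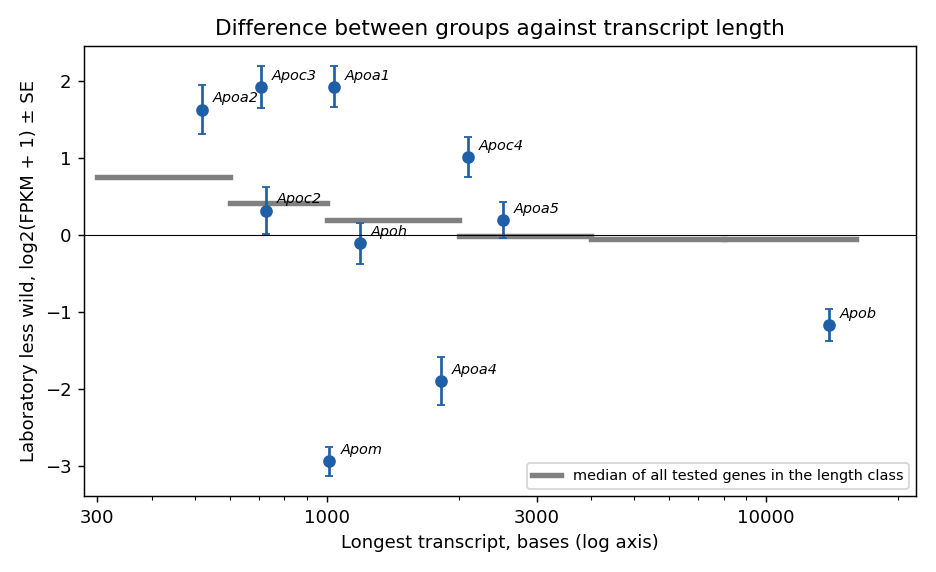
Difference between laboratory and wild mice against the length of the longest transcript (log axis) for the 10 genes, with bars of 1 SE, and the median of all tested genes per length class as grey lines. The grey line falls from 0.75 in the shortest class to -0.05 in the longest, Apoa1, Apoa2 and Apoc3 lie above it (with quantile normalization they fell below 0), and Apom, Apoa4 and Apob lie below it.

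With sex in the fit beside origin, none of the 10 genes had a called sex term (limma, adjusted p of at least 0.641, and 0 of 10 at an unadjusted p under 0.05), where 1.11% of all tested genes did. That term sets 2 wild females against 1 wild male. The widest was that of Apoa2, at -0.68 (SE 0.466) for females less male, and the next that of Apoa5, at 0.57 (SE 0.328).

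Genes that act with these proteins were read from lists in the same fit. Their counts are read against the shares over all tested genes given above, and the ranges over the 16 alternatives are given beside them. Of 7 lipoprotein receptors and their regulators, 4 were lower in laboratory mice and none was higher, with a median difference of -0.61. Over the alternatives 1 to 6 were lower and 0 to 1 higher. Vldlr, a receptor for triglyceride-rich particles, had an FPKM of 0.0732, 0.0244 and 0.128 in laboratory and 4.64, 4.12 and 6.20 in wild mice, a difference of -1.70 (SE 0.155, adjusted p = 0.000177). It passed the filter through the wild mice alone, could be fitted in 13 of the 16 alternatives, and with a pseudocount of 0.1 its difference was -3.99. Sdc1, a heparan sulfate proteoglycan that takes up remnant particles, had 15.3, 21.1 and 17.2 against 97.5, 115 and 86.0, a difference of -1.66 (SE 0.199, adjusted p = 0.000484). Both were low in every laboratory mouse. Scarb1, the receptor through which liver takes up cholesterol from high density lipoprotein, had 39.3, 35.2 and 22.7 against 99.3, 102 and 95.6, a difference of -0.86 (SE 0.277, adjusted p = 0.0322). Its call was lost without laboratory mouse 2 (adjusted p = 0.0643), wild mouse 1 (0.0516) or wild mouse 2 (0.0769), with sex as a covariate (-0.89, adjusted p = 0.121), on zFPKM (0.0707), with a pseudocount of 0.1 (0.0657) and with no filter (0.061).

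Of 8 genes of lipoprotein assembly and secretion, 3 were lower and 1 higher in laboratory mice, with a median of -0.34, and over the alternatives 1 to 6 were lower and 1 to 2 higher. The microsomal triglyceride transfer protein that loads lipid onto Apob is made of the products of Mttp and P4hb, and both were lower, by -0.81 (adjusted p = 0.0033) and -0.90 (adjusted p = 0.00834). On zFPKM Mttp lost its call (-0.30 in zFPKM, adjusted p = 0.123), and so did P4hb with sex as a covariate (-0.89, adjusted p = 0.0657). Mttp had an FPKM of 23.8 to 28.3 in laboratory and 75.2 to 83.5 in wild mice. Sort1, which sorts Apob inside the cell, was higher, at 1.84 (adjusted p = 0.000709), from 2.04 to 2.28 in laboratory and 0.108 to 1.13 in wild mice. The laboratory mice by themselves met the filter for Sort1, and its levels were close to the bound of 1. Over the alternatives its difference ran from 1.09 to 3.06, so its size is uncertain. None of the 3 genes of Apob mRNA editing, Apobec1, A1cf and Rbm47, was called by limma, at an adjusted p of 0.225, 0.157 and 0.563. Over the alternatives 0 to 2 were lower and none was higher.

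Of 11 genes of lipolysis and remodelling, 10 had values, and 5 of these were higher and 3 lower in laboratory mice, with a median of 0.49, against 1 to 5 higher and 1 to 5 lower over the alternatives. Angptl4 was not analysed here. Pltp, the phospholipid transfer protein, had 34.8, 35.4 and 112 in laboratory and 8.97, 10.6 and 17.9 in wild mice, and laboratory mouse 3 was far above the others, at a difference of 2.78 (SE 0.405, adjusted p = 0.00107). Angptl8, a secreted regulator of lipoprotein lipase that follows feeding, was higher by 1.90 (SE 0.585, adjusted p = 0.0268) with overlapping mice, and Gpihbp1, the capillary anchor of lipoprotein lipase, by 1.38 (adjusted p = 0.0159). Gpihbp1 overlapped in FPKM, at 10.1 to 11.7 in laboratory and 3.80 to 13.3 in wild mice, but not after the shift. Angptl8 lost its call without laboratory mouse 1 (adjusted p = 0.0836), laboratory mouse 3 (0.0737), wild mouse 1 (0.0635) or wild mouse 2 (0.0801), with sex as a covariate (0.0562), with the length trend removed (0.0787) and with no shift (1.14, adjusted p = 0.121). Gpihbp1 lost its call without laboratory mouse 1 (adjusted p = 0.0589) and with no shift (0.62, adjusted p = 0.17).

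Of 15 transcription factors known to act on apolipoprotein genes, 3 were higher and 4 lower in laboratory mice, with a median of -0.14, and over the alternatives 1 to 4 were higher and 1 to 11 lower. Mlxipl, the carbohydrate-responsive factor ChREBP, had 50.7, 84.8 and 241 in laboratory and 28.7, 24.7 and 87.4 in wild mice, overlapping in FPKM, with a difference of 2.09 (SE 0.572, adjusted p = 0.0168) that lost its call without wild mouse 2 (1.77, adjusted p = 0.0544) and with no shift (1.33, adjusted p = 0.105). Nr1h4, the bile acid receptor FXR, was higher by 1.46 (adjusted p = 0.000914). Nr5a2, the liver receptor LRH-1, differed by -1.19 (adjusted p = 0.000724). Of 9 other apolipoprotein genes, 8 were tested, 2 were higher and 1 lower in laboratory mice, with a median of 0.29, and over the alternatives 1 to 5 were higher and 1 to 3 lower. Without laboratory mouse 3, 5 were higher (median 0.58), and quantile normalization gave 1 higher and 3 lower. Those called in the fit described above were Apoc1 at 1.85 (adjusted p = 0.0017), Apol9b at 1.51 (adjusted p = 0.0164) and Clu, the chaperone clusterin, at -1.51 (adjusted p = 0.00582). Quantile normalization turned Apoc1 to -0.48 (adjusted p = 0.176), and Apol9b lost its call without laboratory mouse 1 (adjusted p = 0.0602) or laboratory mouse 2 (adjusted p = 0.054), with sex as a covariate (0.93, adjusted p = 0.191) and with no shift (0.75, adjusted p = 0.0983). Apoe, for which wild mouse 2 had a failed estimate and was left out, differed by 0.37 (SE 0.355, adjusted p = 0.407). Over the 14 alternatives that could be fitted, its difference ran from -2.04 to 0.64. It was below 0 with no shift and with quantile normalization, and was called higher only without laboratory mouse 3.

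**Figure D5:**
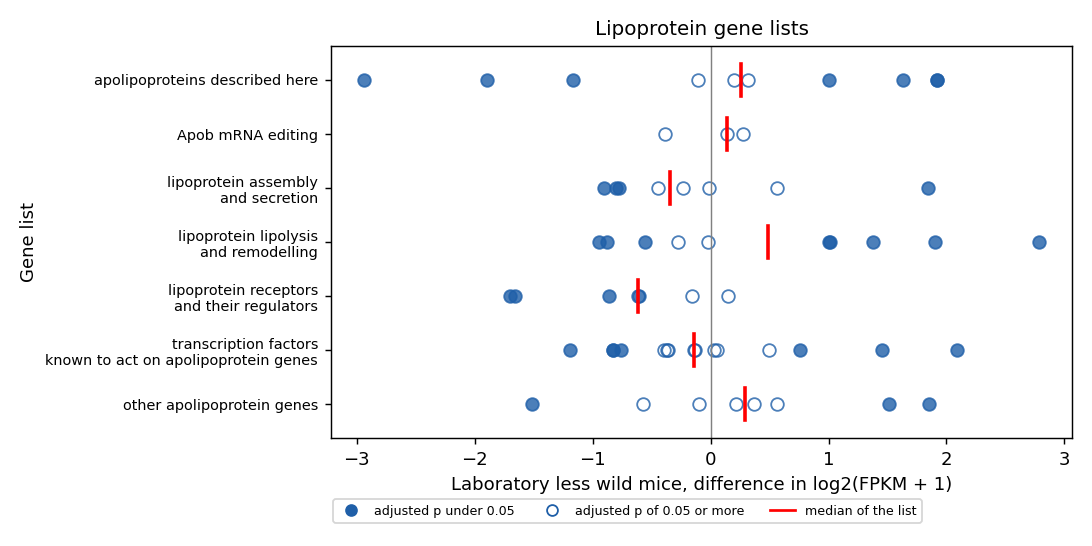
Difference between laboratory and wild mice in log2(FPKM + 1), shifted to a common median, for the tested genes of each list. Filled points passed an adjusted p of 0.05, open points did not, and red lines are the medians, which run from -0.61 for receptors and their regulators to 0.49 for lipolysis and remodelling.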

How the data were processed

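RNA-Seq of liver was used from 6 mice, 3 laboratory and 3 wild, grouped by their titles. The authors made stranded libraries from poly(A) RNA, sequenced single reads of 100 bases, aligned them with kalign to the repeat-masked RefSeq assembly GRCm38.p6 and calculated FPKM with the Tuxedo pipeline. The deposited FPKM are fragments divided by transcript length and library size. The authors also gave zFPKM, a score obtained per mouse by centring log2 FPKM on the mode and dividing by a fitted SD (2.51 to 3.12 over the mice). The Tuxedo version and the strand setting of the counting are not given in the sources used here. The files hold no counts, so the count-based test in the study's methods was not repeated.

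A failed estimate was treated as missing (42 values among the entries listed in all 6 mice), and so were 22 listings at 0 in laboratory mouse 1, where failures are not marked, if the other 5 mice all had an FPKM of at least 1 or a failed estimate. For names listed at several places (1003 names) the chromosome entry was used. Genes with an FPKM of at least 1 in at least 3 mice and values in at least 2 mice of each group were tested, with a pseudocount of 1, in limma 3.58.1 (lmFit, eBayes with trend) on R 4.3.3, each mouse shifted to a common median. The fit was tested on simulated data for 10685 genes, 200 of them moved by 2 in log2: it called 92.5% of those, and 7.5% of its calls were false. The simulation had independent noise, few moved genes and no general offset between the groups. It therefore gives no error rate for the real data and does not test the shift. Ratios, ranks, exact permutation tests and figures used Python 3.11.15 (pandas 2.3.3, numpy 2.4.6, matplotlib 3.10.9, scipy 1.17.1). Starts in the files count from 0, so 1 was added. Transcript lengths are those of the longest transcript on GRCm38.

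The members and lists were chosen with earlier results of these data known, and 2 genes of the receptor list are not reported here. All 10 members are named, with at most the 3 largest differences among the called genes of each pathway list, the highest and lowest marker or those at 0, and the 5 genes most like the member with the widest range. Nothing in the sources pairs mice across groups, each mouse is a separate animal, and precision rests on 3 mice per group. Alternatives were zFPKM, no shift, quantile normalization, a pseudocount of 0.1, a filter at 0.1 and none, limma without trend, sex as a covariate and each mouse left out. Scaling before the log and removal of the transcript length trend were added after seeing the data.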

Additional observations from a re-analysis of the deposited data

How the results depend on the processing

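Apoa4, Apob and Apom kept their direction and call in all 16 alternatives of the fit. Quantile normalization reversed Apoa1 (-0.55), Apoa2 (-0.82), Apoa5 (-0.13), Apoc2 (-0.0762) and Apoc3 (-0.20), leaving 1 of the 10 genes called higher and 6 lower in laboratory mice. No shift reversed Apoa5 (-0.56) and Apoc2 (-0.44) and left 5 called lower. A pseudocount of 0.1 turned Apoh to 0.0236, and removal of the length trend turned Apoc2 to -0.18. Leaving out a mouse at a time gave -0.25 to 0.16 for Apoh and -0.0195 to 0.40 for Apoa5. The causes were not tested. Over all tested genes, 5654 were called, 3069 higher and 2585 lower. The counts were 2211, 1002 and 1209 on zFPKM. With no shift 953 were higher and 6226 lower (13.3% of the calls higher, against 54.3%), and with scaling before the log 2388 and 3409 (41.2%). With the filter at 0.1, 8959 were called, 5669 of them higher. Leaving out a mouse at a time gave 37 to 38 pairs of genes whose ratio did not overlap, in place of 37. Fewer mice cannot create an overlap, so this count could not fall below 37 and is no check. The same holds for males alone, which leaves 1 wild mouse. No paired analysis was possible because the replicate numbers follow accession order and pair no mice across groups. Depth is unknown, and levels near 1 FPKM, such as those of Apoc4, are the least certain.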
